A study of Mus musculus with 13 samples.

Results

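The genes described here are 46 genes of the machinery that fills, docks, fuses and retrieves synaptic vesicles in the nerve terminal, measured by RNA-Seq in whole mouse hippocampus. They were taken by gene symbol alone out of the 45777 genes of the deposited table, each matched 1 row, and all 46 passed the filter on low counts in every comparison. The 13 libraries came from mice of 2 genotypes. Both genotypes carried Nestin-Cre, a Cre recombinase active in neural progenitors and therefore in the neurons, astrocytes and oligodendrocytes that descend from them. LIN28A WT mice were Nestin-Cre::Lin28a+/+, and LIN28A-cKO mice were Nestin-Cre::Lin28aloxP/loxP, in which Lin28a is removed from that whole lineage and not from adult progenitors alone. Mice were given saline (sham-WT, n = 3, and sham-cKO, n = 4) or pilocarpine, a muscarinic agonist that induces status epilepticus (SE-WT, n = 3, and SE-cKO, n = 3). Hippocampi were taken at day 3. Males received 260 mg/kg pilocarpine, females received 280 mg/kg, and the labels do not give the sex of a library. Per the study's methods, mice were treated at 6 weeks of age, received scopolamine methyl nitrate and terbutaline before pilocarpine and diazepam to end the seizures, and were kept only if they developed SE.

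Release of transmitter runs through a fixed sequence of protein machines. Vesicles are loaded with glutamate by vesicular transporters, held in reserve by synapsins, tethered at the active zone by Bassoon, Piccolo and RIM proteins together with Rab3 GTPases, and primed by Munc13 proteins. Fusion is carried out by the SNARE proteins syntaxin, SNAP25 and synaptobrevin, held and released by complexins and triggered by the calcium sensor synaptotagmin. Dynamin, amphiphysin and adaptor proteins then pull the membrane back for reuse. In the hippocampus these genes are expressed mainly by neurons, and several come as paralogs whose use differs between brain regions and between excitatory and inhibitory neurons.

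Lin28a, the deleted gene, was counted 3 times in SE-WT replicate 3 and 0 times in each of the other libraries, so its own level could not check the genotype labels. Levels are given as CPM, which are counts divided by library size after TMM scaling. Before TMM scaling, the upper limit for a gene with 0 counts was 0.0356 to 0.0503 CPM by library, for counting error only. Library totals ranged from 59659977 to 84354243 counts. Markers of hippocampal neurons were not even across libraries. The granule cell gene Prox1 was between 17.4 and 114 CPM. In SE-WT replicate 2 the CA pyramidal gene Iyd was at 0. Neurod6, another CA pyramidal gene, was at 0.964 CPM there, against 83.8 to 130.1 CPM in the sham libraries. These were extremes of the list. In the same library Wfs1 was at 88.1 CPM (sham 29.8 to 91.2) and Man1a at 73.3 CPM (sham 54.7 to 103.8). The median of the 12 CA pyramidal genes there was -1.84 on the log2 scale, relative to sham. Several libraries stood apart in genes of other tissue. The 12 striatal neuron genes summed to 2722 CPM in SE-WT replicate 2 and to between 202 and 326 CPM in the other libraries, and all 12 were highest in that library. The 10 thalamic neuron genes summed to 2149 CPM in sham-cKO replicate 2, where all 10 were highest, to 1332 CPM in SE-WT replicate 3, and to between 196 and 311 CPM elsewhere. Gbx2, a defining thalamic gene, was at 0 in 7 libraries and Gpr6, a striatal gene, in 1. The 8 choroid plexus genes summed to 4458 CPM in sham-WT replicate 3, where all 8 were highest, to 2682 CPM in sham-cKO replicate 3, 1457 CPM in sham-WT replicate 2 and 1198 CPM in SE-cKO replicate 1, and to between 19.7 and 660 CPM elsewhere. All 8 oligodendrocyte genes were highest in SE-WT replicate 3, with a sum of 7885 CPM against 2685 to 5218 CPM in the others. For some members, but not for every member that these libraries moved, values are also given without the 3 libraries rich in striatal or thalamic genes. Mitochondrial rRNA made up 4.83% of counts in SE-WT replicate 3 and 3.92% in SE-cKO replicate 3, against 0.486% to 1.66% in the other libraries.

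Levels differed over a wide range between these genes in sham hippocampus. On the deposited TPM scale, which accounts for transcript length, Snap25, a SNARE of the plasma membrane, had the highest mean over the 7 sham libraries (597 ± 92.1 TPM, SD). Syt1, the fast calcium sensor, followed at 307 ± 52.8 TPM, then the vesicle protein gene Syp at 261 ± 17.2 TPM, Rab3a at 255 ± 24.9 TPM and Dnm1, the main neuronal dynamin, at 226 ± 32.1 TPM. Neighbours from Syt1 down to Dnm1 lay within the larger of their SDs of each other, while Snap25 stood apart from Syt1 by more than the SD of either. At the low end stood Sv2c at 3.20 ± 0.713 TPM, Syn3 at 2.98 ± 0.999 TPM, Cplx3 at 1.76 ± 0.817 TPM and Slc17a8, which encodes VGLUT3, at 1.36 ± 0.328 TPM. Within paralog sets 1 or 2 members carried most of the signal. Syt1 exceeded Syt2 (5.56 ± 2.86 TPM), and Slc17a7, which encodes VGLUT1, was at 210 ± 37.1 TPM against 24.9 ± 33.7 TPM for Slc17a6, which encodes VGLUT2 and whose SD exceeded its mean.

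LIN28A blocks the maturation of let-7 microRNAs, which pair with their targets through a seed at bases 2 to 8, and for this reason the 3′ UTRs of the 46 genes were searched for that seed's match. In RefSeq, 10 mature mouse microRNAs share the seed. Shown here are let-7a-5p with the seed in capitals, and the only 2 matches found among the 46 genes, written as DNA of the transcript strand with the match CTACCTC in capitals.
mmu-let-7a-5p (chr13:48538239-48538260, minus strand): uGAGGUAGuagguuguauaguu
Syt7 3′ UTR (chr19:10450893-10450917, plus strand): ataatacttcacCTACCTCatgggg
Syt11 3′ UTR (chr3:88745392-88745416, minus strand): gattcctccctcCTACCTCaggcct
Coordinates are of GRCm38, with UTRs from GENCODE M21. Thus 2 of 46 members (4.35%) held a match in their longest annotated 3′ UTR, against 1877 of 20575 coding genes (9.12%), although the members' UTRs were longer, with a median of 2296 bases against 983. A match is a run of letters and not a tested site.

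The 250 bases before annotated transcription starts were also read, since most members moved in the same direction in LIN28A-cKO mice after SE. RefSeq windows on GRCm38.p6 were found for 36 of the 46 genes. Both strands were searched for 5 motifs, none of which contains another. The cAMP response element was taken as TGACGTCA and the GC box as GGGCGG. For the CCAAT box its own letters were used, for the E-box the form CAGCTG was searched, and for the TATA box the form TATAAA was searched. A GC box stood before at least 1 start of 25 of the 36 genes (69.4%), against 35.4% of 27025 genes with a window, and the E-box before 11 (30.6%, against 14.7%). The median GC content of their windows was 58.8%, against 52.4% over all windows. The CCAAT box was found for 12 (33.3%, against 37.5%), the TATA box for 2 (5.56%, against 14.3%) and the cAMP response element for Syn1 alone (2.78%, against 1.77%). The windows of 4 genes are shown because their values differ most in kind. Amph had the smallest p in SE-cKO against sham-cKO, Sv2c was the only member that rose, Dnm3 was the only one called for the interaction of genotype and SE in edgeR, and Syn1 held the response element. Capitals mark every match of the first 4 motifs.
Amph (chr13:18948101-18948350, plus strand): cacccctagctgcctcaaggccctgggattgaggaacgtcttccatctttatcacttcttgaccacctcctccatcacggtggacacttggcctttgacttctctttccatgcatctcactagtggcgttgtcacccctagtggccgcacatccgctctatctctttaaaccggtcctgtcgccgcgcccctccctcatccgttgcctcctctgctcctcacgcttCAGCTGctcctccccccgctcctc
Sv2c (chr13:96132578-96132827, minus strand): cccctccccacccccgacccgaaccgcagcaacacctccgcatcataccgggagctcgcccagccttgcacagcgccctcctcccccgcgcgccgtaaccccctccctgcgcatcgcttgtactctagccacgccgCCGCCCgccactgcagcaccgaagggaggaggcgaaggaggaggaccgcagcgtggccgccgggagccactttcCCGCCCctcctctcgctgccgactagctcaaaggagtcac
Dnm3 (chr1:162478035-162478284, minus strand): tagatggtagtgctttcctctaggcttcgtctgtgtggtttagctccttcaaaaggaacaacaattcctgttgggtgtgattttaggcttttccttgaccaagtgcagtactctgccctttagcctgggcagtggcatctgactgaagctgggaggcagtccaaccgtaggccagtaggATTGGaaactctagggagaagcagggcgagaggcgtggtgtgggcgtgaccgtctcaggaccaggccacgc
Syn1 (chrX:20920919-20921168, minus strand): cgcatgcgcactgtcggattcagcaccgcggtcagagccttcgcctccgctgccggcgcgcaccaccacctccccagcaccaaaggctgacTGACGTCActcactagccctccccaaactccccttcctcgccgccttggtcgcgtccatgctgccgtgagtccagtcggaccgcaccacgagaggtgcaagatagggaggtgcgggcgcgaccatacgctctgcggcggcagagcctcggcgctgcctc
The Dnm3 window lies inside its annotated gene, which runs to base 162478321, and the Amph window overlaps its gene, which starts at base 18948142. Both of these windows therefore precede a start within the gene. The windows differ from each other. Amph holds a single E-box close to its start, Sv2c a pair of GC boxes, Dnm3 a single CCAAT box that reads on the strand opposite to the one printed, and Syn1 the response element. These matches describe letters and say nothing of what binds there.

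In LIN28A-cKO mice, 22 of the 46 genes fell after SE and 1, Sv2c, rose (SE-cKO against sham-cKO). Of all 21307 genes tested, 8.92% were called lower and 13.8% higher. The log2 fold change was negative for 42 of 46 members with a median of -0.71, while the median of all genes tested was 0.00. DESeq2 called 29 members lower, against 13.1% of all genes. In LIN28A WT mice, 0 of the 46 genes passed in SE-WT against sham-WT in edgeR, where 0.832% of 20803 genes were called lower and 4.57% higher. There, 10 members had an unadjusted p under 0.05 (7 lower and 3 higher), as did 20.8% of all genes, and DESeq2 called 3 (Sv2c, Syn3 and Dnm3, all higher), against 12.9% of all genes. The median log2 fold change in WT mice was -0.12, with 29 of 46 negative. Since whole hippocampus was sequenced, fewer neurons or nerve terminals and less RNA in each cannot be told apart in any of these values. The 2 comparisons differ also in their number of sham libraries and in the spread of their SE libraries, and whether the genotypes responded differently is given by the interaction further on.

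**Figure D1:**
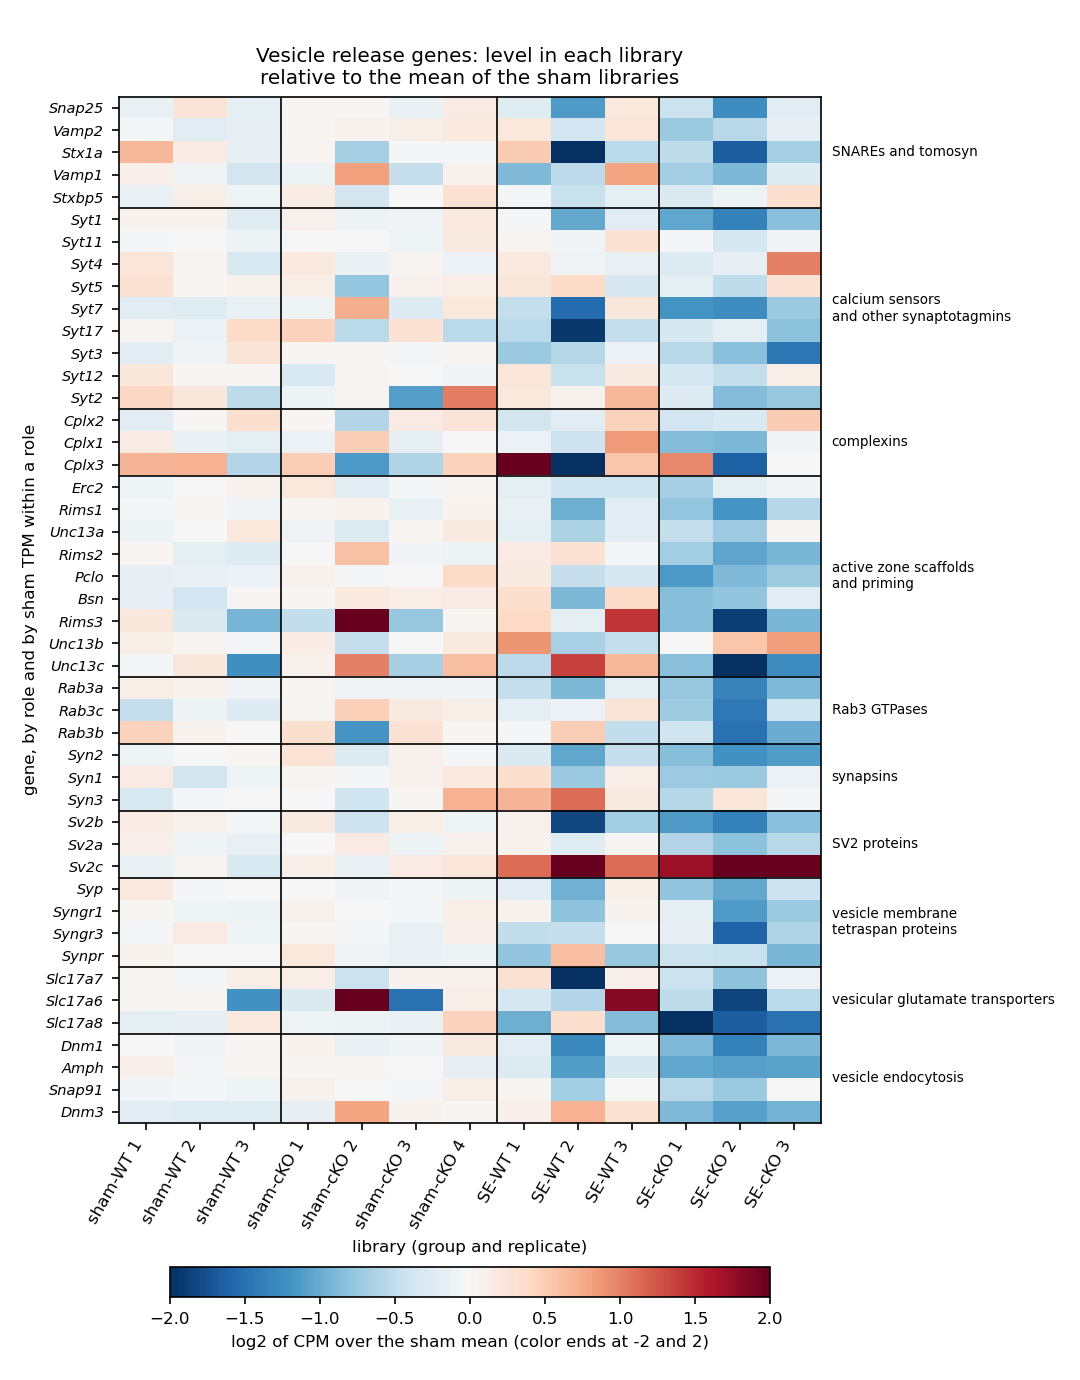
Heat map of the 46 genes (rows, by role) in the 13 libraries (columns, by group and replicate), with color giving the log2 ratio of CPM to the gene's mean over the 7 sham libraries. The SE-cKO columns are blue in most rows with the exception of Sv2c, SE-WT replicate 2 is blue in many of the same rows, and Rims3 and Slc17a6 are red in sham-cKO replicate 2 and SE-WT replicate 3.

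**Figure D2:**
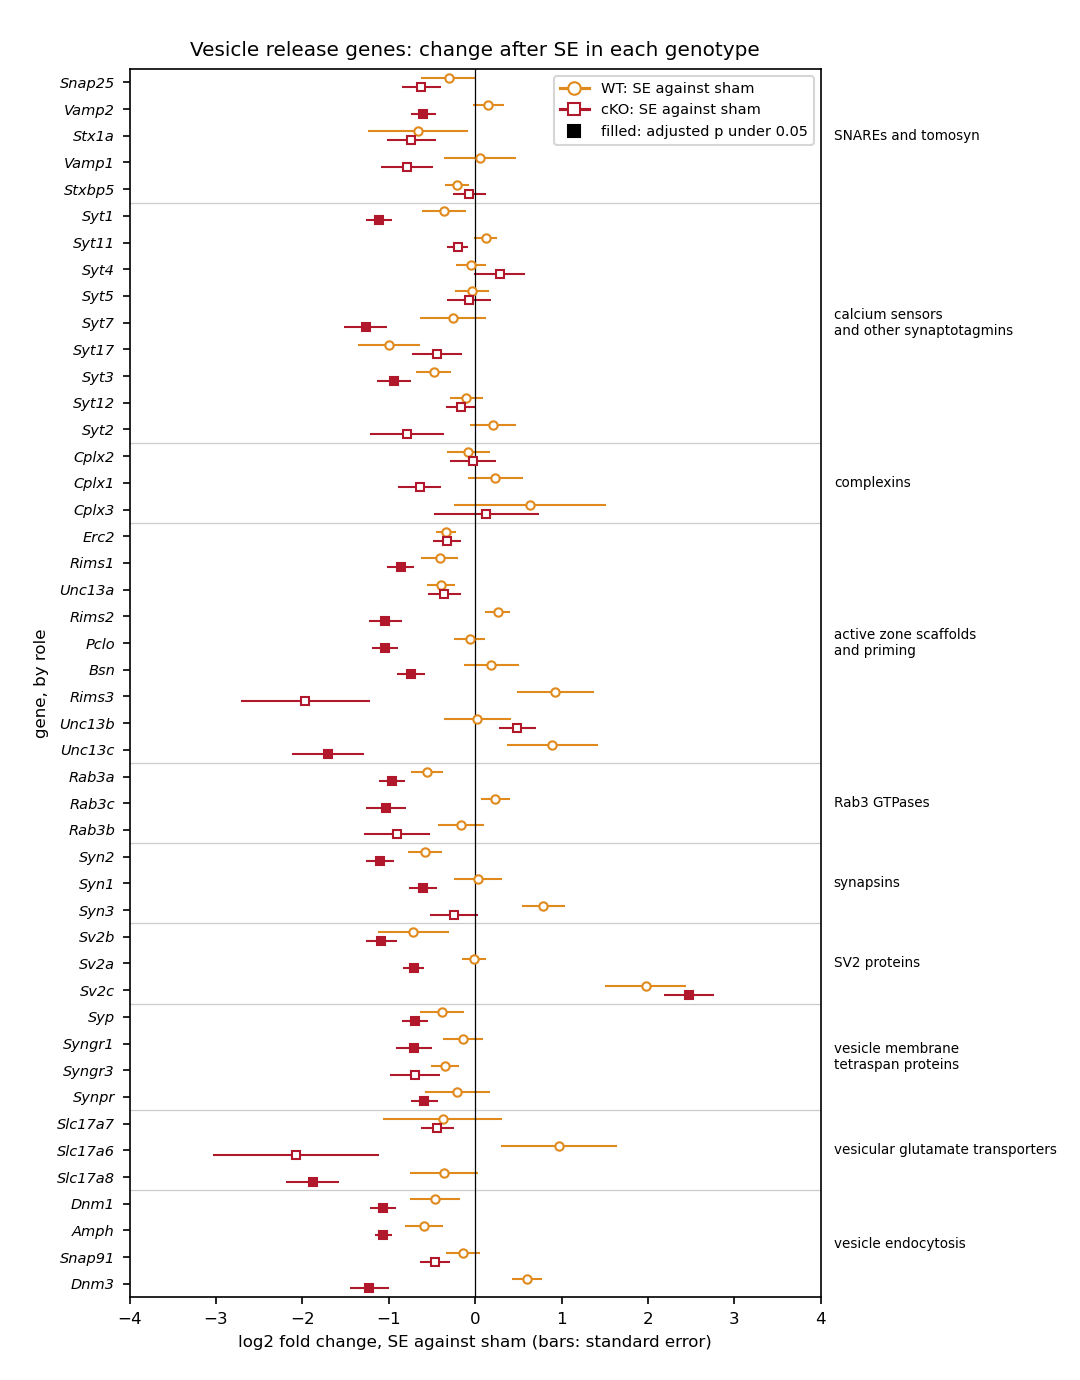
Log2 fold change of each gene in SE against sham, with standard errors, in WT (circles) and cKO mice (squares), filled where the adjusted p was under 0.05. All filled symbols are cKO squares, 22 to the left of 0 and Sv2c to the right at 2.48.

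Among the proteins that retrieve vesicle membrane, Amph, which encodes the dynamin-binding protein amphiphysin, had closely spaced values in SE-cKO. It was at 242, 218 and 233 CPM in the sham-WT libraries, 232, 227, 222 and 200 CPM in sham-cKO, 186, 104 and 180 CPM in SE-WT, and 109, 106 and 107 CPM in SE-cKO. All 3 SE-cKO values lay below every sham-cKO value and close to each other, and those of SE-WT lay below sham-WT but were spread. Amph was 2.09-fold lower in SE-cKO than in sham-cKO (log2 fold change -1.07, SE 0.0997, adjusted p = 0.000186). In WT mice the change was -0.59 (SE 0.218, adjusted p = 0.183). Dnm1 fell by 1.07 on the log2 scale in cKO mice (SE 0.150, adjusted p = 0.00145), with all SE-cKO libraries between 224 and 311 CPM and all sham-cKO libraries between 519 and 644 CPM. Snap91, the clathrin adaptor AP180, had a change of -0.46 in cKO mice that did not pass (adjusted p = 0.0916). Of these 4 retrieval genes, 3 fell in cKO mice (Amph, Dnm1 and Dnm3) and 0 in WT mice.

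The list of calcium sensors and other synaptotagmins was split. Syt1 was at 1131, 1139 and 918 CPM in sham-WT, 1143, 1005, 1030 and 1245 CPM in sham-cKO, 1070, 532 and 923 CPM in SE-WT, and 528, 424 and 606 CPM in SE-cKO. The SE-cKO and sham-cKO libraries did not overlap, whereas in WT mice SE replicate 2 alone was low and the other 2 libraries lay near the sham range. In SE-cKO Syt1 was 2.17-fold lower (log2 fold change -1.12, SE 0.151, adjusted p = 0.00120), and in SE-WT its change was -0.36 (adjusted p = 0.472), which was 0.00 without the 3 libraries. Syt7, a slow, high-affinity sensor, fell by 1.27 (adjusted p = 0.00788) and Syt3 by 0.94 (adjusted p = 0.0101) in cKO mice. The remaining synaptotagmins did not pass in either genotype. Syt2, the sensor of fast inhibitory terminals, had a change of -0.78 in cKO and 0.21 in WT mice, and Syt4, Syt5, Syt11, Syt12 and Syt17 ranged from -0.44 to 0.28 in cKO mice. In WT mice Syt17 had the lowest value of the group (-0.99, adjusted p = 0.174). Syt7 and Syt11, the 2 genes with a let-7 seed match, therefore had a called fall and a change of -0.20 (adjusted p = 0.278) in cKO mice.

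Of the SNAREs and tomosyn, which binds syntaxin, 1 of 5 fell in cKO mice. Vamp2, the vesicle SNARE of most forebrain terminals, was at 129, 114 and 118 CPM in sham-WT, 135, 138, 143 and 151 CPM in sham-cKO, 152, 101 and 155 CPM in SE-WT, and 78.7, 89.6 and 118 CPM in SE-cKO. The cKO groups did not overlap and the WT groups did. Vamp2 was 1.51-fold lower in SE-cKO than in sham-cKO (adjusted p = 0.0183), a call that 4 of 17 alternatives did not make. Snap25 (-0.62, adjusted p = 0.0798), Stx1a (-0.74, adjusted p = 0.0981) and Vamp1 (-0.79, adjusted p = 0.0963) did not pass, and Stxbp5, which encodes tomosyn, had a change of -0.07. Vamp1, a SNARE of brainstem, thalamic and fast-spiking neurons, was highest in sham-cKO replicate 2 (107 CPM) and SE-WT replicate 3 (105 CPM), the 2 libraries high in thalamic genes, and between 32.3 and 64.6 CPM elsewhere. Without the 3 libraries rich in striatal or thalamic genes, its change in WT mice went from 0.06 to -0.79 (adjusted p = 0.0721), with 1 SE-WT library left. Stx1a was at 13.3 CPM in SE-WT replicate 2, the library high in striatal genes, and between 18.8 and 93.3 CPM in the others. Without the 3 libraries its change in WT mice went from -0.66 to 0.24, and that in cKO mice was -0.90 (adjusted p = 0.0466).

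The complexins, clamps of the assembled SNARE complex, gave no call in either genotype. Cplx1 was at 150, 122 and 118 CPM in sham-WT, 125, 190, 118 and 134 CPM in sham-cKO, 125, 101 and 243 CPM in SE-WT, and 74.2, 72.7 and 130 CPM in SE-cKO. Its highest values again came from the 2 libraries high in thalamic genes. Its change was -0.64 in cKO mice (adjusted p = 0.102) and 0.23 in WT mice (adjusted p = 0.734), and without the 3 libraries these were -0.48 and -0.07. Cplx2, the more abundant paralog, changed by -0.03 and -0.08, with standard errors of 0.266 and 0.246. Cplx3 was too variable to place, from 0.812 to 15.2 CPM among the SE-WT libraries.

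In the active zone, 5 of the 9 genes fell in cKO mice and 0 in WT mice. Pclo, which encodes the scaffold Piccolo, was at 342, 350 and 355 CPM in sham-WT, 407, 373, 387 and 500 CPM in sham-cKO, 434, 280 and 306 CPM in SE-WT, and 173, 209 and 236 CPM in SE-cKO. The highest SE-cKO library stood below the lowest library of every other group. Pclo was 2.06-fold lower in SE-cKO than in sham-cKO (log2 fold change -1.04, SE 0.151, adjusted p = 0.00169), and its change in WT mice was -0.06 (SE 0.177). Its partner Bsn, which encodes Bassoon, fell by 0.74 (adjusted p = 0.0133), and the RIM genes Rims1 and Rims2 fell by 0.86 (adjusted p = 0.00463) and 1.04 (adjusted p = 0.00569). Erc2, a further scaffold gene, did not pass and had the same change in both genotypes (-0.33 in cKO, -0.34 in WT). Rims3 had a change of -1.97 in cKO mice (SE 0.745, adjusted p = 0.0948). It was at 345 CPM in sham-cKO replicate 2 and between 43.7 and 76.0 CPM in the other 3 sham-cKO libraries, and without the 3 libraries its change was -0.82.

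Of the 3 Munc13 genes, which prime vesicles for fusion, Unc13c alone was called in cKO mice. Unc13a, the main form of excitatory terminals, was at 222, 240 and 276 CPM in sham-WT, 228, 198, 247 and 271 CPM in sham-cKO, 211, 154 and 207 CPM in SE-WT, and 172, 144 and 246 CPM in SE-cKO, with a change of -0.36 in cKO mice (adjusted p = 0.225). Unc13b was between 81.2 and 146 CPM in SE-cKO and between 59.0 and 91.8 CPM in sham-cKO (log2 fold change 0.49, adjusted p = 0.149). Unc13c, a form best known from the cerebellum, was at 46.2, 87.5, 27.5 and 65.7 CPM in sham-cKO and at 24.2, 10.7 and 18.1 CPM in SE-cKO, without overlap. It fell by 1.71 (adjusted p = 0.0190), a call made in 12 of 17 alternatives. In SE-WT it was at 30.3, 112 and 68.4 CPM, highest in the library high in striatal genes, and its change in WT mice went from 0.89 to -0.31 without the 3 libraries.

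The Rab3 GTPases, which mark vesicles for the active zone, fell in 2 of 3 cases in cKO mice. Rab3a was at 301, 293 and 268 CPM in sham-WT, 290, 267, 266 and 268 CPM in sham-cKO, 201, 150 and 246 CPM in SE-WT, and 166, 111 and 150 CPM in SE-cKO. Sham and SE libraries did not overlap in either genotype. The change was -0.97 in cKO mice (SE 0.148, adjusted p = 0.00228) and -0.56 in WT mice (SE 0.184, adjusted p = 0.141). Rab3c was at 460, 613, 498 and 481 CPM in sham-cKO and at 270, 163 and 335 CPM in SE-cKO, a fall of 1.03 (adjusted p = 0.0142), but at 385, 406 and 528 CPM in SE-WT against 317, 414 and 369 CPM in sham-WT (log2 fold change 0.23). Rab3b had a change of -0.90 in cKO mice that did not pass (adjusted p = 0.131).

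Of the synapsins, which cluster the reserve pool of vesicles, 2 of 3 fell in cKO mice. Syn2 was at 562, 602 and 618 CPM in sham-WT, 722, 493, 638 and 579 CPM in sham-cKO, 488.7, 290.8 and 436.6 CPM in SE-WT, and 333, 257 and 275 CPM in SE-cKO, below sham in both genotypes without overlap. The fall in cKO mice was 2.15-fold (log2 fold change -1.10, SE 0.161, adjusted p = 0.00179), and the change in WT mice was -0.58 (SE 0.195, adjusted p = 0.148). Syn1 fell by 0.60 in cKO mice (adjusted p = 0.0311), a call that 8 of 17 alternatives did not make. Syn3, at a far lower level, was at 37.6, 51.2 and 26.7 CPM in SE-WT against 19.1, 22.9 and 23.7 CPM in sham-WT (log2 fold change 0.79, SE 0.246, adjusted p = 0.124), and at 15.9, 27.8 and 22.9 CPM in SE-cKO against 17.8 to 38.1 CPM in sham-cKO (-0.25). WT values were apart and cKO values overlapped.

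The SV2 genes moved in opposite directions in cKO mice. They encode vesicle glycoproteins, and SV2A is the binding site of the antiseizure drug levetiracetam. Sv2c was at 9.13, 10.4 and 8.06 CPM in sham-WT, 10.9, 9.06, 11.2 and 11.9 CPM in sham-cKO, 21.7, 66.8 and 21.6 CPM in SE-WT, and 33.1, 62.0 and 88.1 CPM in SE-cKO. Every SE library stood above every sham library. Sv2c rose 5.57-fold in cKO mice (log2 fold change 2.48, SE 0.288, adjusted p = 0.000555). In WT mice its log2 fold change was 1.98 (SE 0.467, adjusted p = 0.0597), and without the 3 libraries, which leaves SE-WT replicate 1 alone, it was 1.23 (adjusted p = 0.0159). The highest SE-WT value came from the library high in striatal genes, and the part of that tissue in it was not tested. The striatal genes summed to 202 to 326 CPM in the SE-cKO libraries.

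Sv2a and Sv2b went the other way. Sv2a was at 300, 264 and 252 CPM in sham-WT, 278, 312, 262 and 298 CPM in sham-cKO, 294, 237 and 291 CPM in SE-WT, and 187, 158 and 191 CPM in SE-cKO. WT mice kept overlapping values (log2 fold change -0.02, SE 0.135), and the SE-cKO libraries stood below all others. Its fall in cKO mice was 1.64-fold (log2 fold change -0.71, SE 0.117, adjusted p = 0.00324). Sv2b, abundant in forebrain excitatory neurons, fell by 1.09 in cKO mice (adjusted p = 0.00362), with SE-cKO libraries between 286 and 407 CPM and sham-cKO libraries between 548 and 823 CPM. In WT mice its libraries were at 770, 205 and 451 CPM after SE (log2 fold change -0.72, SE 0.412), and the change was 0.00 without the 3 libraries.

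All 4 tetraspan proteins of the vesicle membrane had negative changes in both genotypes, and 3 fell in cKO mice. Syp, which encodes synaptophysin, was at 559, 481 and 490 CPM in sham-WT, 490, 466, 477 and 455 CPM in sham-cKO, 418, 250 and 526 CPM in SE-WT, and 283, 240 and 367 CPM in SE-cKO. Only the cKO groups were apart, with a 1.62-fold fall (log2 fold change -0.70, SE 0.149, adjusted p = 0.0113). Syngr1 fell by 0.71 (adjusted p = 0.0376) and Synpr, a synaptophysin relative of mossy fiber and other terminals, by 0.59 (adjusted p = 0.0246), while Syngr3 did not pass (-0.69, adjusted p = 0.123). The call was not made in 7 of 17 alternatives for Syngr1 and in 6 of 17 for Synpr. Synpr was at 73.3, 192 and 75.0 CPM in SE-WT against 127 to 133 CPM in sham-WT, so that replicate 2 alone stood above sham.

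Of the vesicular glutamate transporters, 1 of 3 fell in cKO mice, and single libraries set the spread of the other two. Slc17a8 was the one called. Its levels were 3.93, 3.99 and 5.09 CPM in sham-WT, 4.21, 4.17, 4.05 and 6.13 CPM in sham-cKO, 2.26, 5.58 and 2.44 CPM in SE-WT, and 0.842, 1.43 and 1.59 CPM in SE-cKO. It was 3.68-fold lower in SE-cKO than in sham-cKO (log2 fold change -1.88, SE 0.308, adjusted p = 0.00331), on no fewer than 66 counts in any library. Slc17a7, the transporter of hippocampal principal cells, was at 569, 55.7 and 493 CPM in SE-WT, where replicate 2 was the lowest of all libraries, and at 341, 262 and 424 CPM in SE-cKO against 506, 341, 484 and 488 CPM in sham-cKO (log2 fold change -0.44, adjusted p = 0.152). In WT mice its change went from -0.38 to 0.26 without the 3 libraries. Slc17a6, the transporter of thalamic relay neurons, reached 342 CPM in replicate 2 of sham-cKO and 175 CPM in replicate 3 of SE-WT, and was between 13.7 and 54.1 CPM in the other libraries. Its change in cKO mice of -2.07 (SE 0.960, adjusted p = 0.163) became -0.49 without the 3 libraries.

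**Figure D3:**
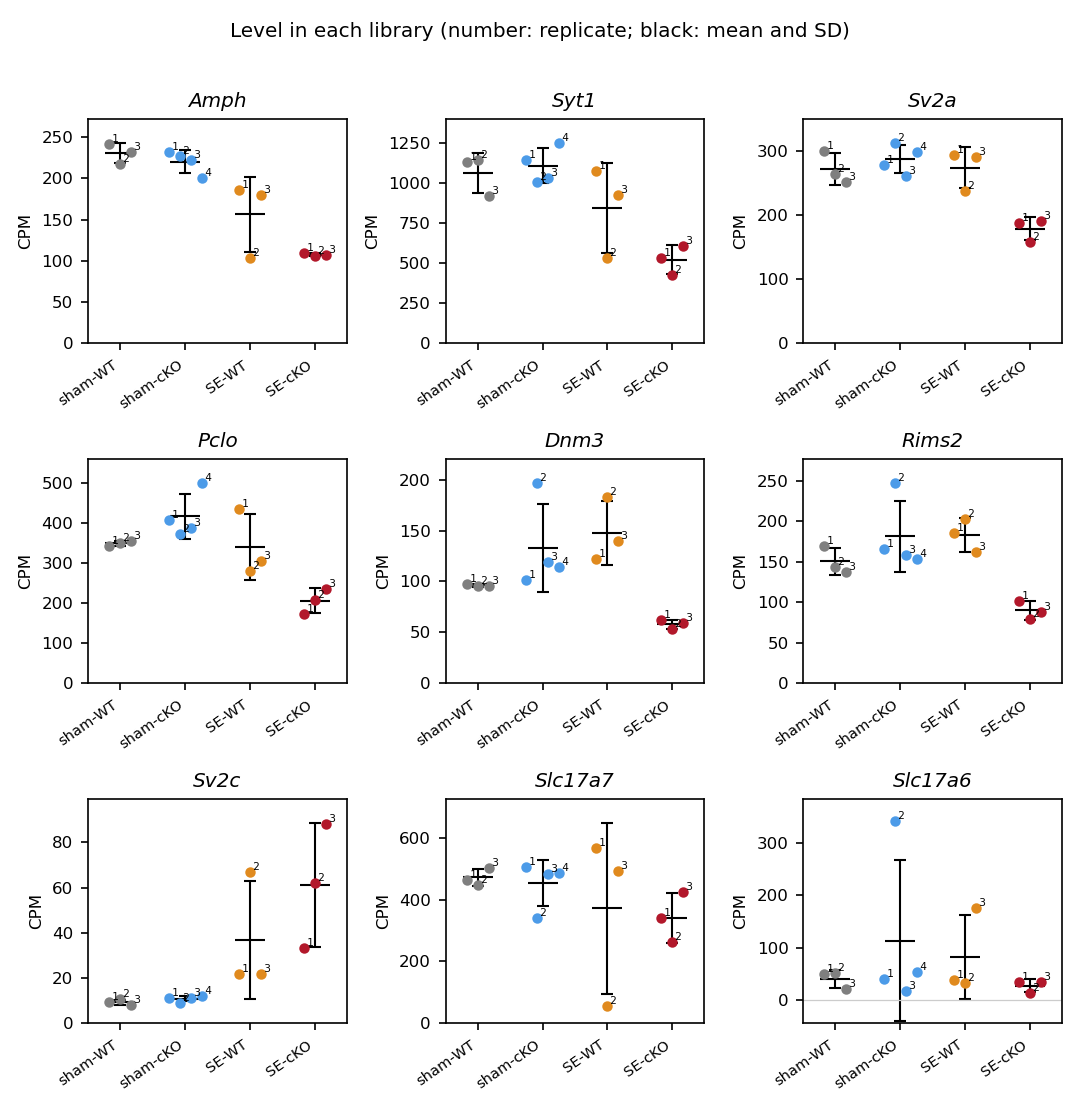
CPM of 9 genes in each library, with the replicate number beside each point and the group mean and SD in black; the axes start at 0 except for Slc17a6, where the SD reaches below it. SE-cKO points lie below all other groups for Sv2a, Pclo, Dnm3 and Rims2, SE points lie above sham for Sv2c, and single libraries set the spread of Slc17a7 and Slc17a6.

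Between the genotypes after SE, no member passed (SE-cKO against SE-WT): 0 of 46 in edgeR, as were 0% of all 21126 genes. At an unadjusted p under 0.05, 15 members were lower in SE-cKO, against 4.27% of all genes, and 0 were higher. The log2 fold change was negative for 40 of 46 with a median of -0.52, beside a median of 0.00 and 49.9% negative over all genes. It was also negative for 18 of 20 general neuronal genes (median -0.44) and for 10 of 12 interneuron genes (median -0.77). Of the CA pyramidal genes 9 of 12 were negative (median -0.11), and of the granule cell genes 3 of 10 (median 0.80). By library, the CA pyramidal median relative to sham was -1.05, -1.84 and -0.26 in SE-WT and -0.80, -1.37 and -0.82 in SE-cKO. The value of -1.84 came from SE-WT replicate 2, the library high in striatal genes, and the list is not given without it. DESeq2 called 6 members lower (Dnm3, Rims2, Rims3, Unc13c, Syt2 and Sv2a), against 1.08% of all genes, and limma voom called 0. In 9 members every SE-cKO library lay below every SE-WT library, as in 5.68% of all genes, and these were the same 6 with Pclo, Rab3c and Slc17a8. The 6 smallest p values belonged to the 6 genes that DESeq2 called. Dnm3, a dynamin enriched at synapses, was at 122, 183 and 139 CPM in SE-WT and at 61.9, 53.3 and 58.7 CPM in SE-cKO (log2 fold change -1.39, SE 0.198, adjusted p = 0.236). Rims2 was at 186, 202 and 161 CPM in SE-WT and 102, 79.7 and 87.7 CPM in SE-cKO (-1.06, SE 0.172, adjusted p = 0.253). For Sv2a the difference was -0.65 (SE 0.167, adjusted p = 0.337) and for Syt2 -0.97 (SE 0.240, adjusted p = 0.322). Rims3 (-1.87, SE 0.452, adjusted p = 0.320) and Unc13c (-2.03, SE 0.499, adjusted p = 0.322) had the widest gaps. Without the 3 libraries rich in striatal or thalamic genes, of which 2 are SE-WT, the values were -1.10 for Dnm3, -1.08 for Rims2, -0.75 for Sv2a, -0.85 for Syt2, -1.56 for Rims3 and -0.81 for Unc13c, and 0 members passed with 1 SE-WT library left.

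Sv2c, the gene that rose, was not called between the genotypes after SE (log2 fold change 0.70, SE 0.533, adjusted p = 0.764). Among the high abundance members, Snap25 differed by -0.32 (SE 0.381), Syt1 by -0.73 (SE 0.278), Syp by -0.45 (SE 0.295), Rab3a by -0.52 (SE 0.236) and Dnm1 by -0.61 (SE 0.314). None of these passed the adjusted threshold, with adjusted p values from 0.458 for Syt1 to 0.876 for Snap25.

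The interaction of genotype and SE, which is the SE effect in cKO mice minus that in WT mice over all 13 libraries, was called for 1 member. Of 22596 genes, 0.0752% were called lower and 0.0841% higher. Dnm3 had an interaction of -1.82 on the log2 scale (SE 0.303, adjusted p = 0.0439). Its CPM values were 97.4, 95.5 and 95.5 in sham-WT, 101, 197, 119 and 115 in sham-cKO, 122, 183 and 139 in SE-WT, and 61.9, 53.3 and 58.7 in SE-cKO. The WT libraries stood above sham after SE and the cKO libraries below, with no overlap in either genotype. In WT mice the change was 0.60 (SE 0.169, adjusted p = 0.0951) and in cKO mice -1.23 (SE 0.227, adjusted p = 0.00588). The WT change ranged from 0.097 to 0.73 over its 16 alternatives. The 3 highest Dnm3 values came from the 3 libraries rich in striatal or thalamic genes. Without them the interaction was -1.31 (adjusted p = 0.0591), with striatal and thalamic levels entered as covariates beside the 4 groups it was -1.02, and 14 of its 22 alternatives did not call it. The cKO change alone was called in all 17 of its alternatives, with -0.99 (adjusted p = 0.00106) without the 3 libraries.

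Over all members the interaction was negative for 38 of 46, with a median of -0.50 beside 0.03 over all genes. The general neuronal genes had a like shift, with 19 of 20 negative and a median of -0.42, and the interneuron genes had 9 of 12 negative and a median of -0.78. Of the CA pyramidal genes 7 of 12 were negative, with a median of -0.08. Of the granule cell genes 7 of 10 were positive, with a median of 0.79. Whether the members differed from these lists was not tested. At an unadjusted p under 0.05, 13 members were lower, against 6.33% of all genes. DESeq2 called 6 lower (Dnm3, Rims2, Sv2a, Rab3c, Pclo and Unc13c), against 1.61% of all genes, and limma voom called 0. Rims2 had an interaction of -1.30 (SE 0.249, adjusted p = 0.0789), Pclo one of -0.98 (SE 0.238, adjusted p = 0.140) and Sv2a one of -0.70 (SE 0.171, adjusted p = 0.144). At the other end, Unc13a (0.04), Cplx2 (0.05) and Erc2 (0.01) had interactions near 0, with standard errors of 0.267, 0.400 and 0.212. An interaction without a call does not show that the genotypes responded alike.

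In the absence of SE, 0 of the 46 genes passed in sham-cKO against sham-WT, as did 0% of 20785 genes, and DESeq2 and limma voom called 0 members. At an unadjusted p under 0.05 stood 4 members, all higher in sham-cKO, against 5.54% of all genes. They were Rab3c (log2 fold change 0.50, SE 0.130), Vamp2 (0.25, SE 0.0769), Bsn (0.31, SE 0.102) and Pclo (0.27, SE 0.107), each with an adjusted p of 0.868. The next were Dnm3 (0.48, SE 0.214) and Syt7 (0.41, SE 0.217). The median of the 46 was 0.06. For 5 members (Rab3c, Vamp2, Pclo, Dnm3 and Snap91) every sham-cKO library stood above every sham-WT library, as in 3.88% of all genes, so their distance between SE-cKO and sham-cKO, and the called interaction of Dnm3, were measured from a higher sham level than in WT mice.

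A further list of other presynaptic genes held 62 genes, of which 60 were tested. In cKO mice 18 were lower, against 8.92% of all genes, and 6 higher, a smaller share than the 13.8% of all genes, with a median of -0.26. The lower ones with the smallest p were Sh3gl2, which encodes endophilin A1 (-1.22, SE 0.134, adjusted p = 0.000419), the lipid phosphatase gene Synj1 (-1.02), Cadps (-0.83) and the SNARE-disassembling ATPase gene Nsf (-0.62). The higher ones with the smallest p were Syngr2 (2.05), Dnm2 (0.92), Snap23 (0.92) and Vamp3 (0.76), which are forms used by many non-neuronal cells. In WT mice 4 were lower, among them Lin7b (-1.03), Ppfia2 (-1.25) and Cadps2 (-1.32), and 2 were higher, Syngr2 (1.18) and Syt15 (2.08), against 0.832% and 4.57% of all genes. WT mice thus had called falls among presynaptic genes, of which Lin7b and Cadps2 were called in cKO mice as well. In SE-cKO against SE-WT, 42 of the 60 were negative with a median of -0.19, beside -0.52 for the members. For the interaction, 41 of 60 were negative with a median of -0.21, beside -0.50 for the members. The test of the difference between the 2 lists was not made.

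Markers of neurons in general were examined beside the members. Of 20 such genes, 8 were lower and 0 higher in SE-cKO against sham-cKO, with a median of -0.51, and in WT mice 0 were called, with a median of -0.06. Their summed level was 5149 to 6922 CPM in SE-cKO, 6714 to 8146 CPM in SE-WT and 8173 to 8680 CPM in the sham libraries. By library, the median of the 46 genes relative to sham was -0.57, -0.90 and -0.55 in SE-cKO, where that of the general neuronal genes was -0.44, -0.74 and -0.10. In SE-WT the members' medians were -0.03, -0.49 and 0.03 and the neuronal medians -0.07, -0.27 and 0.11. In SE-cKO replicate 3, with the neuronal median nearest to sham, the neuronal genes summed to 6922 CPM, below every sham library, and the medians of interneuron, CA pyramidal and granule cell genes were -0.85, -0.82 and -1.36. Genes of hippocampal principal cells were low after SE in both genotypes, with medians of -1.35 in WT and -1.01 in cKO mice for granule cells and of -0.84 and -1.02 for CA pyramidal cells. Interneuron genes had a median of -0.22 in WT mice, with 1 of 12 lower, and of -0.79 in cKO mice, with 5 lower and 1 higher. Their sums were 1088 to 1888 CPM in SE-WT and 698 to 935 CPM in SE-cKO, against 1090 to 1567 CPM in sham. The sum of 1888 CPM was that of SE-WT replicate 2, the library high in striatal genes. SE-WT replicates 1 and 3 summed to 1213 and 1088 CPM. The 10 astrocyte genes summed to 7610 to 8821 CPM in SE-WT and to 10448 to 10827 CPM in SE-cKO, without overlap, against 4526 to 5949 CPM in sham. Their medians by library did overlap, at 0.82, 0.43 and 1.22 in SE-WT and 0.97, 0.93 and 1.25 in SE-cKO. Between these groups 0 of the 10 were called in edgeR, with 6 positive and a median log2 fold change of 0.17. The 10 microglial genes were all higher after SE in both genotypes, and summed to 1296 to 1731 CPM in SE-WT and 1476 to 2368 CPM in SE-cKO against 365 to 405 CPM in sham. The part of these shifts in the members' values was not tested.

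**Figure D4:**
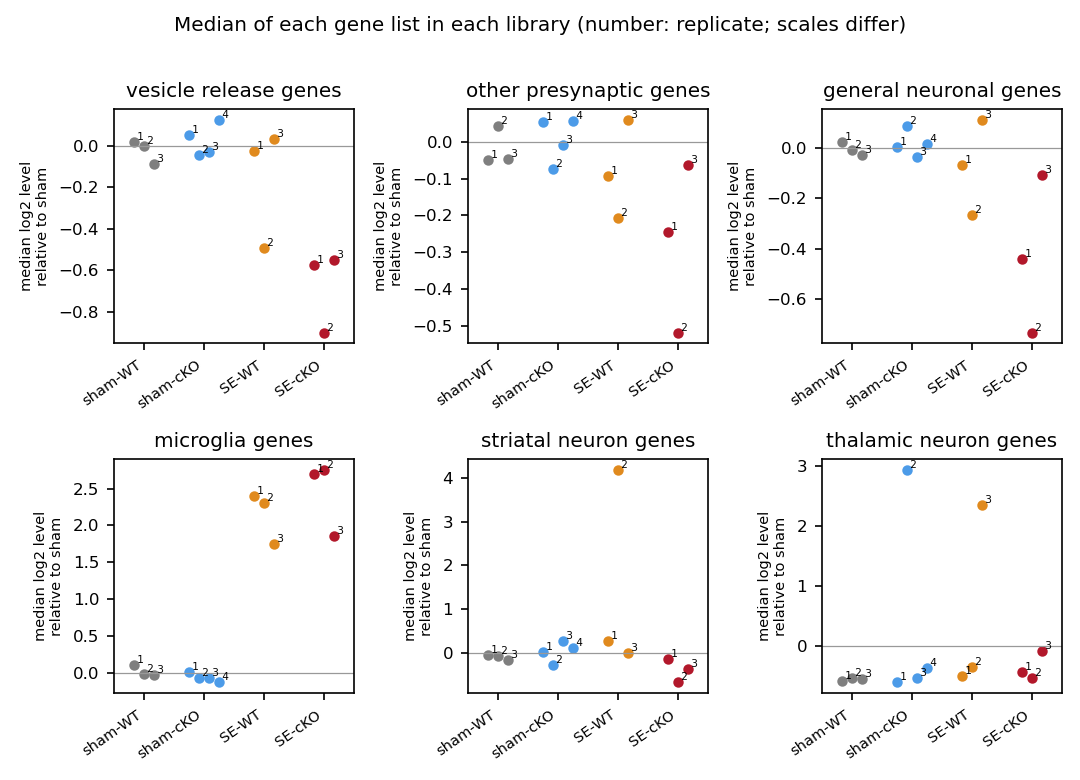
Median log2 level, relative to the sham mean, of the 46 genes and of 5 other gene lists in each library, with the replicate number beside each point and a separate scale in each panel. The 46 genes are low in all 3 SE-cKO libraries and in SE-WT replicate 2, the striatal list is high at 4.18 in SE-WT replicate 2, and the thalamic list is high in sham-cKO replicate 2 (2.93) and SE-WT replicate 3 (2.35).

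Leaving out the 3 libraries rich in striatal or thalamic genes did not remove the falls in cKO mice. There, 24 members were lower and 1 higher without sham-cKO replicate 2, with a median of -0.71. The share of all genes called is not given for the fits with libraries left out, so these counts have no background beside them. Without the 4 libraries high in choroid plexus genes, 16 were lower and 1 higher in cKO mice, and in WT mice 0 were called. In WT mice without the first 3 libraries, with SE-WT replicate 1 as the only SE library left and its spread assumed from the sham libraries, 2 members were higher and 1 lower, and the median was 0.00. The 8 members with the smallest p among those that fell in cKO mice (Amph, Syt1, Dnm1, Pclo, Syn2, Rab3a, Sv2a and Slc17a8) were each called in all 17 of their alternatives, as were Rims1, Rims2, Syt3 and Dnm3. Calls on Syn1, Syngr1, Synpr, Unc13c and Vamp2 were made in 9 to 13 of 17. Such counts are not given here for Bsn, Rab3c, Sv2b, Syp and Syt7, which also fell.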

How the data were processed

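Hippocampal RNA from 13 mice was sequenced as TruSeq stranded total-RNA libraries. Per the submitters' processing notes, reads were handled with bcl2fastq 2.20.0 and Trimmomatic, aligned to mm10 with HISAT2 2.1.0 and quantified with StringTie 2.1.3b. The strand setting was not given in the sources used here. The deposited table holds read counts, FPKM and TPM per gene and library. The read counts, made by the authors and not normalized, were tested. The deposited TPM served only to compare levels between genes, and the FPKM were not used.

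edgeR 4.0.16 (R 4.3.3) was used for the tests: low genes were dropped by filterByExpr with a minimum count of 10 and a minimum total of 15, libraries were scaled by TMM, and the robust quasi-likelihood test was applied to the 2 groups of a comparison, or to all 13 libraries for the interaction. The adjustment for multiple testing (Benjamini-Hochberg, threshold 0.05) covered every gene tested. CPM are TMM-scaled, and list medians use log2 CPM with a prior count of 2. Each group held 3 or 4 mice. Averaged over genes, replicates differed by 51.3 to 468 times the sampling variance. Genes with high counts weigh most in that average, so counting error can be a larger part of the spread for members with low counts. As alternatives, DESeq2 1.42.0 or limma 3.58.1 voom with quality weights replaced edgeR, RLE factors replaced TMM, the filter was dropped, all 4 groups shared a fit, and terms were added for the replicate number, the style of the title, Xist, or striatal and thalamic levels. Single libraries, the 3 high in striatal or thalamic genes, or the 4 high in choroid plexus genes (chosen after seeing the data) were also left out. The comparisons of 2 groups were also run on simulated counts with planted changes. That simulation held no interaction and no library of mixed tissue, and its outcome is not given here.

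The members and gene lists were chosen with earlier results of these data known. Genes were named by rule: full statistics for at most 8 called members per direction with the smallest p, or the 6 with the smallest p where none was called, and values per library for the member of each role with the smallest p and for paralogs that differed in direction. The members printed for their sequence and the remaining members of each role were named after their values were seen. The values of 1 gene of the further presynaptic list are not reported here.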

Additional observations from a re-analysis of the deposited data

Results flagged for a closer look

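In the sham-cKO group, the 4 libraries of each of the 46 genes were examined for a single library far from the other three, which chance gives in about 1 in 20 genes. Such a library was found for 10 genes, against 9.29% of all genes, and in 6 of them it was replicate 2, the library high in thalamic genes, against 3.7% of all genes. Replicate 2 was high for Slc17a6 (342 CPM, others 17.6 to 54.1), Rims3 (345 CPM, others 43.7 to 76.0) and Rims2 (247 CPM, others 153.1 to 166.1). It was low for Slc17a7 (341 CPM, others 484 to 506), Syt5 (32.3 CPM, others 59.1 to 60.8) and Stx1a (37.2 CPM, others 57.4 to 61.3). The remaining ones were Rab3a in replicate 1 (290 CPM, others 266 to 268), Synpr in replicate 1 (146 CPM, others 116 to 120), Rims1 in replicate 3 (190 CPM, others 216 to 220) and Slc17a8 in replicate 4 (6.13 CPM, others 4.05 to 4.21). The part of thalamic tissue in these values was not tested.

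Dnm3 had an effect of SE that differed between the genotypes, with an interaction of -1.82 on the log2 scale in edgeR (adjusted p = 0.0439), a call that 14 of 22 alternatives did not make. Every SE-WT library was above sham-WT and every SE-cKO library below sham-cKO. The WT rise was as small as 0.097 on the log2 scale over its 16 alternatives.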

How the results depend on the processing

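In SE-cKO against sham-cKO, the count of 23 called members ranged from 18 to 30 over 17 alternatives, and the median stayed negative. In SE-WT against sham-WT, 0 members were called, but DESeq2, limma voom and leaving out the 3 libraries set apart by striatal or thalamic genes called 3 each, a covariate for Xist 4, a term for title style 2, and all 4 groups in 1 fit or striatal and thalamic levels as covariates 1 each. The WT median of -0.12 became 0.057 with those covariates and lay between -0.22 and 0.067 when single libraries were left out, with 0 to 2 calls. The value of 0.067 came without SE-WT replicate 2, the library high in striatal genes. In SE-cKO against SE-WT, 0 members were called, with 6 in DESeq2, 4 with Xist level, 3 with all 4 groups in 1 fit or with title style, 1 with the covariates, and 0 whichever library was left out. Its median of -0.52 was -0.70 with the covariates, and lay between -0.72 (without SE-WT replicate 2) and -0.42 over single libraries. The interaction called 1 member, but 6 in DESeq2 and 0 in limma voom, without the 3 libraries, with the covariates and with Xist level. Leaving out single libraries gave 0 to 2 calls, with 0 without any of the 3 sham-WT libraries, sham-cKO replicates 1, 3 or 4, SE-WT replicate 2 or SE-cKO replicates 1 or 2. The interaction median of -0.50 was -0.75 without the 3 libraries, -0.77 with the covariates and between -0.74 (without SE-WT replicate 2) and -0.42 over single libraries. Leaving out the 4 libraries high in choroid plexus genes, an alternative chosen after seeing the data, gave 17 calls in cKO mice and 0 in the other comparisons, including the interaction. Except for DESeq2, the share of all genes called in these alternatives is not given, so a changed count may reflect a change over all genes. The causes were not tested.

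Replicate numbers did not pair the libraries, since correlations of deviations from the group means ran from -0.07 to 0.25 and exceeded 0.1 in 4 of 18 pairs. With a replicate block, 18 members were called in cKO mice, 0 in WT mice, 0 between genotypes after SE or in sham, and 0 for the interaction. Every member had at least 59 counts in each library, and the part of counting error in the lowest members was not measured.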
